A study of Homo sapiens with 6 samples.

Results

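The 10 genes described here, BCR, ABL1, CRKL, GAB2, STAT5A, STAT5B, SOCS2, CISH, PIM1 and MYC, belong to the BCR-ABL and STAT5 signalling pathway of Meg-01 cells. They were chosen by name for their place in the pathway. All 10 are among the 58735 genes of the count table, and all 10 passed the minimum of 10 counts in at least 3 libraries that left 15078 genes for testing. RNA from Meg-01 cells, a megakaryoblast line established from a leukaemia with the BCR-ABL1 fusion, was sequenced from 3 control libraries of untreated cells and 3 C3 libraries. The C3 cells had received sodium propionate, the salt of a fatty acid that gut bacteria release from fibre, at 500 µM, and the labels give 48 h of exposure while the study's methods also name a shorter one. Library totals were between 16159449 and 22821722 counts. The study calls the libraries technical replicates, so every p-value here measures the spread between these libraries only.

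In cells with the Philadelphia chromosome, the front part of BCR is joined to the ABL1 kinase, and the fusion protein is active without the signals that normally switch ABL1 on. Adaptors such as CRKL and GAB2 bind to the fusion protein or to its partners and pass its signal on, and the transcription factors STAT5A and STAT5B become phosphorylated, enter the nucleus and switch on target genes. These targets include brakes on cytokine receptors (CISH and SOCS2) and the survival kinase PIM1, while MYC, a driver of growth and ribosome production, is kept on in many such leukaemias.

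The libraries carried most markers of the labelled cell type. Of 15 megakaryoblast markers 13 were tested, ITGA2B was the most abundant per kilobase of exon, and PF4 and GP1BB were at 0 counts in every library. The summed normalized counts of these markers were 43710, 43860 and 42060 in control and 41760, 39540 and 39930 in C3 libraries. Of the 15, GP1BA (log2 fold change -0.49, adjusted p = 2.17e-06) and NFE2 (log2 fold change -0.38, adjusted p = 0.000189) fell, also without any 1 library. Among markers of other cell types, the summed normalized counts of 8 monocyte and granulocyte genes were 853.2, 867.4 and 828.7 in control libraries. In C3 libraries they were 639.6, 630.7 and 641.5. Only 2 of the 8 were tested, LYZ and MPO, and most of the sum came from LYZ, the most abundant. LYZ fell from a mean of 613.1 to 430.5 normalized counts (log2 fold change -0.51, adjusted p = 4.65e-05). MPO did not pass (log2 fold change -0.225, adjusted p = 0.228), and FCGR3B was at 0. The 9 erythroid markers, 7 of them tested, with KLF1 the most abundant and none at 0 in every library, summed to between 963.9 and 1157. The 6 lymphocyte markers, 2 of them tested, with CD79A the most abundant and MS4A1 at 0, summed to between 64.3 and 99.02. No marker on either list passed the test. Of the 4 stromal markers 3 were tested, COL3A1 was the most abundant, and none was at 0 in every library. Their summed normalized counts were 34.29, 40.3 and 28.66 in control and 53.49, 54.55 and 65.09 in C3 libraries, without overlap. COL1A1 rose at counts of 2 to 34 (log2 fold change 1.89, adjusted p = 0.00942), a call that ended without any 1 of the 6 libraries (adjusted p from 0.0202 to 0.0431). The first principal component, 45.5% of the variance, separated the groups. On the second, 17.4% of the variance, control 3 lay at -21.3 against 12.5 and 10.9 for the other control libraries, and C3 1 at 13.4 against -10.4 and -5.09 for the other C3 libraries. Counts from the mitochondrial genome made up 4.16%, 4.58% and 5.51% of control and 3.83%, 3.87% and 3.51% of C3 libraries. With those genes left out before scaling, an alternative chosen after seeing the data, the same number of the 10 genes passed the test, 2 higher and 1 lower. The part of the other cell types' markers in the results below was not tested.

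After C3 treatment, ABL1 and PIM1 rose and CISH fell at an adjusted p-value below 0.01, and the other 7 genes did not pass this threshold. All 3 changes were small: ABL1 was 1.19 times and PIM1 1.18 times the control level, and CISH 0.827 times. Over all 15078 tested genes, 6.51% were higher and 4.06% lower at that threshold. Among the 5067 tested genes at least as abundant as GAB2, the lowest of the 10 by normalized count, 13.3% passed in either direction. The 3 of 10 seen here, split over both directions, stand beside that background, and with 10 genes nothing more is read from the share. None of the 10 was a DEG, which also requires a fold change above 1.3, by edgeR, DESeq2 or limma-voom, while over all tested genes the share of DEGs was 5.05% for higher and 1.47% for lower counts. At an unadjusted p below 0.05, the count was 8 of the 10 genes by each of the 3 tools, against 32.1% of all tested genes by edgeR. In 5 genes every C3 library lay above every control library, and in 4 every one lay below. The same held for 17.5% and 16.9% of all tested genes, and for 40.8% in either direction among those at least as abundant as GAB2. The median log2 fold change of the 10 was 0.0023, beside 0.00208 over all tested genes. In this bulk RNA, fewer cells of a type and less RNA per cell cannot be told apart.

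**Figure D1:**
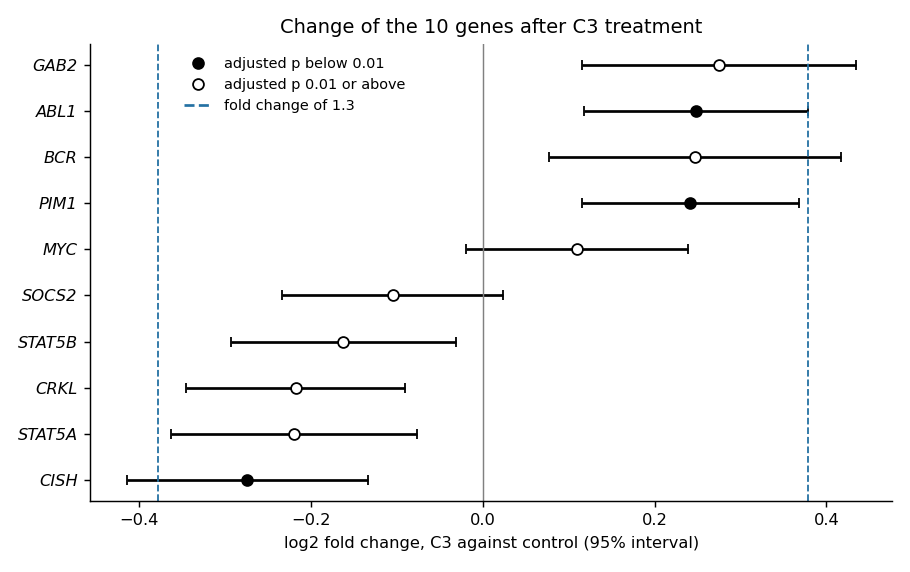
Log2 fold change of each of the 10 genes, C3 against control, with its 95% interval from the edgeR fit (3 libraries a group). Filled points mark ABL1, PIM1 and CISH, with an adjusted p below 0.01, and no point lies beyond the dashed lines at a fold change of 1.3.

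BCR and ABL1 are the fusion partners. The counts of each gene pool reads of its normal alleles with reads of any fusion transcript, and cannot separate them. BCR lies on the plus strand at chr22:23179704-23318037 and ABL1 on the plus strand at chr9:130713043-130887675 (GRCh38). ABL1 (ENSG00000097007), the kinase partner, had 4835.4, 4311.7 and 4327.2 normalized counts in control and 5352.8, 5194.8 and 5459.6 in C3 libraries. Every C3 library lay above every control library, and control 1 was the closest of the controls to them. ABL1 rose from a mean of 4491 ± 298 to 5336 ± 133 (SD, n = 3 each), a log2 fold change of 0.25 (95% interval 0.118 to 0.379, adjusted p = 0.00653). BCR (ENSG00000186716) had 3229.8, 3058.3 and 2315.2 normalized counts in control and 3380.3, 3294.2 and 3543 in C3 libraries. Control 3 lay well below the other 5 libraries, and the groups did not overlap. The log2 fold change of BCR was almost that of ABL1, 0.25 (95% interval 0.0765 to 0.417), but with a control spread of 17% of the mean, against 6.63% for ABL1, it did not pass (adjusted p = 0.0354).

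The value of BCR rested on control 3: without that library its log2 fold change was 0.116 (adjusted p = 0.229), and without control 1 it was 0.354 (adjusted p = 0.00966). Over 14 alternative fits its adjusted p ran from 0.00101 to 0.229. The call of ABL1 ended without control 2 (log2 fold change 0.22, adjusted p = 0.0718), without control 3 (0.223, adjusted p = 0.0234) and without C3 3 (0.234, adjusted p = 0.0469), and its adjusted p over 14 alternatives ran from 3.73e-05 to 0.0718. The log2 ratio of BCR to ABL1 counts within a library, which needs no scaling, was -0.58, -0.50 and -0.90 in control and -0.66, -0.66 and -0.62 in C3 libraries. The C3 libraries lay close together and inside the control range, and control 3 was the lowest of the 6. The mean ratio was -0.66 ± 0.214 in control and -0.648 ± 0.0212 in C3 libraries (SD, n = 3 each), a difference of 0.012 (exact permutation p = 1, two-sided). Without control 3 the difference was -0.109 and without C3 3 it was -0.000147, so its sign was not settled. Of the 100-base windows along BCR exons, 8.78% occur unchanged in transcripts of other annotated genes, while no window of ABL1 does.

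**Figure D2:**
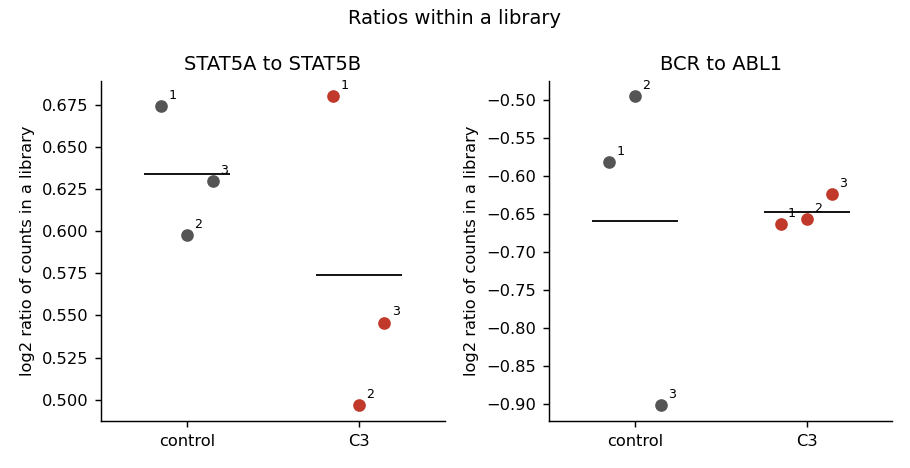
Log2 ratio of STAT5A to STAT5B counts and of BCR to ABL1 counts within each library, with the replicate number beside each point and a line at each group's mean. The groups overlap in both ratios, and control 3 has the lowest BCR to ABL1 ratio at -0.90.

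Over the 6 libraries, the tested genes most like BCR in log2 CPM, among 10580 with a mean of at least 100 normalized counts, were HECTD4 (Pearson r = 0.9946), TNRC18 (0.9915) and CEP170B (0.9909). All 3 shared its low value in control 3, as TNRC18 did with 2747, 2619 and 2061 normalized counts in control and 2808, 2670 and 2949 in C3 libraries. Those most like ABL1 were SAFB2 (0.9939), the DNA methyltransferase DNMT1 (0.9915) and TERT (0.9914), the catalytic subunit of telomerase. These correlations over 6 libraries in 2 groups are descriptions, since any gene that differs between the groups shares that difference.

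CRKL and GAB2, the adaptors, differed in sign, and neither passed the test. CRKL (ENSG00000099942, plus strand of chr22:20917407-20953747), the SH2 and SH3 adaptor that BCR-ABL phosphorylates, had 3253.3, 3507.9 and 3252.6 normalized counts in control and 2903.4, 2945.8 and 2763.5 in C3 libraries. All C3 libraries lay below all control libraries, of which control 2 was the highest. The log2 fold change was -0.22 (95% interval -0.345 to -0.0905, adjusted p = 0.0138). GAB2 (ENSG00000033327, minus strand of chr11:78215293-78418348), a docking protein that links the fusion to PI3 kinase and RAS signalling, had 675.9, 627.8 and 612.5 normalized counts in control and 847.9, 751.3 and 727.7 in C3 libraries. The controls all lay below the C3 libraries, of which C3 1 was the highest. The log2 fold change was 0.27 (95% interval 0.115 to 0.435, adjusted p = 0.0131). CRKL was past the threshold without C3 1 (log2 fold change -0.224, adjusted p = 0.00638), with a range of adjusted p over 14 alternatives from 2.53e-05 to 0.13. GAB2 did not pass with any 1 library left out (adjusted p from 0.0141 to 0.0635), but passed in 3 of 14 alternatives, among them library size alone (log2 fold change 0.348, adjusted p = 0.0029) and no count filter (0.285, adjusted p = 0.00782). Its adjusted p over 14 alternatives ran from 0.0029 to 0.0635.

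**Figure D3:**
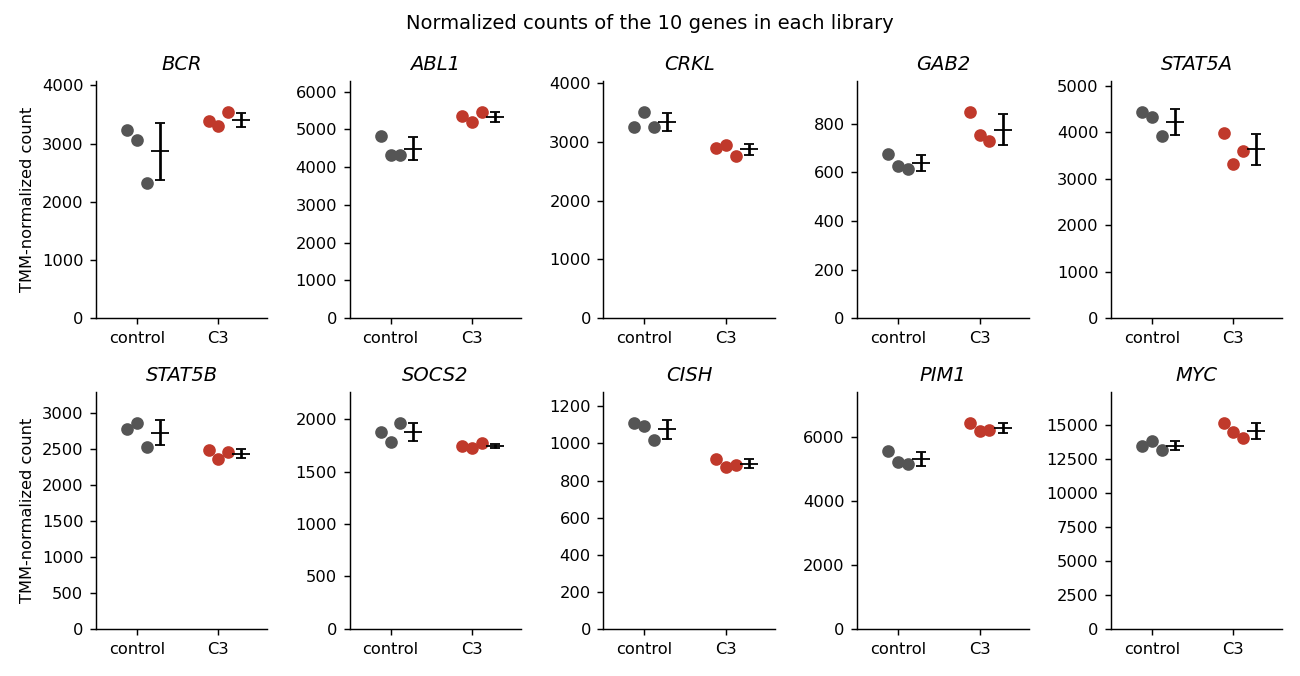
Normalized counts of the 10 genes in the 3 control (grey) and 3 C3 (red) libraries, in the order of replicates 1 to 3, with the mean and SD beside the points and each axis starting at 0. Only STAT5A has groups that overlap, and control 3 stands low in BCR.

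Of 30 other adaptors and kinases of the BCR-ABL complex, 28 were tested, 1 rose and 1 fell, and the median log2 fold change was 0.0171. CBL, the ubiquitin ligase and adaptor that associates with BCR-ABL, had 1666.3, 1679.7 and 1572.5 normalized counts in control and 1958.8, 2115.1 and 2007.5 in C3 libraries. CBL rose with no overlap (log2 fold change 0.31, adjusted p = 0.00108), also without any 1 of the 6 libraries. DOK2, a docking protein that dampens RAS signalling, had 2194.4, 2178.1 and 2025.1 normalized counts in control and 1832.4, 1757.1 and 1711.1 in C3 libraries. Its groups did not overlap, and DOK2 fell (log2 fold change -0.27, adjusted p = 0.00285). This call ended with library size alone (-0.2, adjusted p = 0.0256) and without control 1, control 2, C3 2 or C3 3 (log2 fold change from -0.308 to -0.239 over the 6 libraries left out in turn), and the adjusted p over 14 alternatives ran from 1.69e-07 to 0.0348. The kinase FES had a log2 fold change of -0.27 (adjusted p = 0.0186) in groups that overlapped, and was past the threshold without control 3 (-0.35, adjusted p = 0.00321) or C3 1 (-0.322, adjusted p = 0.00502), its adjusted p over 14 alternatives running from 2.46e-07 to 0.131. With 1 library left out, the count on this list was 1 higher and between 0 and 2 lower.

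STAT5A and STAT5B, the transcription factors, lie beside each other on chromosome 17 on opposite strands and overlap at their 5′ ends. STAT5A (ENSG00000126561) is on the plus strand at chr17:42287547-42311943 and STAT5B (ENSG00000173757) on the minus strand at chr17:42199176-42288633. STAT5A had 4434.7, 4328.6 and 3908.1 normalized counts in control and 3981.3, 3322.9 and 3585.4 in C3 libraries. C3 1, the highest of the C3 libraries, lay above control 3, the lowest control, so the groups overlapped. The log2 fold change was -0.22 (95% interval -0.363 to -0.0768, adjusted p = 0.0259). Without C3 1 it was -0.288 (adjusted p = 0.00144), and its adjusted p over 14 alternatives ran from 3.02e-09 to 0.17, the lowest with both control 3 and C3 1 left out, an alternative chosen after seeing the data. STAT5B ranged from 2525.4 to 2860 normalized counts in control and from 2355.3 to 2484.6 in C3 libraries. No library of one group reached the other, and the log2 fold change was -0.16 (95% interval -0.294 to -0.0316, adjusted p = 0.0735). With control 3 and C3 1 both left out it was -0.224 (adjusted p = 0.000101), within a range of adjusted p over 14 alternatives from 0.000101 to 0.348.

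The log2 ratio of STAT5A to STAT5B counts within a library was 0.67, 0.60 and 0.63 in control and 0.68, 0.50 and 0.55 in C3 libraries. C3 1 had the highest ratio of the 6 and the other C3 libraries the lowest. The means were 0.634 ± 0.0386 in control and 0.574 ± 0.0951 in C3 libraries (SD, n = 3 each), a difference of -0.06 (exact permutation p = 0.4, two-sided). The paralogues share 593 windows of 100 bases, 8.4% of those of STAT5A and 4.37% of those of STAT5B, counted on either strand. Exons on the other strand cover 6.5% of the exon bases of STAT5A and 3.43% of those of STAT5B, where the genes overlap each other. Such exons of other genes cover 4.28% of the exon bases of SOCS2 (SOCS2-AS1), 3.18% of those of MYC (CASC11), 1.4% of those of GAB2 and 4.31% of those of CISH, and exons on the same strand cover 1.42% of those of ABL1. The strand setting of the counting is not stated, and the part of reads from such bases in these values was not tested.

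Of 24 other JAK-STAT receptors, kinases and STATs, 23 were tested, 2 rose and 1 fell, and the median log2 fold change was 0.0844. The interleukin 6 receptor gene IL6R, with 310.4 to 343.6 normalized counts in control and 424.9 to 461.1 in C3 libraries, rose (log2 fold change 0.44, adjusted p = 0.000828). The IL6R call held without any 1 of the 6 libraries. The erythropoietin receptor gene EPOR, with 370.1 to 402.6 normalized counts in control and 469.7 to 516.7 in C3 libraries, rose (log2 fold change 0.35, adjusted p = 0.00457). This call ended without control 1, control 2, control 3 or C3 2 (log2 fold change from 0.313 to 0.392 and adjusted p up to 0.0401 over the 6 libraries left out in turn), and with DESeq2 (adjusted p = 0.0153), the adjusted p over 14 alternatives running from 0.00121 to 0.0401. With 1 library left out, the count on this list was between 1 and 3 higher and 1 lower.

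CISH (ENSG00000114737, minus strand of chr3:50606489-50611774) is a STAT5 target whose protein binds activated cytokine receptors and limits further STAT5 signalling. Exons of MAPKAPK3 on the other strand cover 4.31% of its exon bases. CISH had 1111.9, 1095.4 and 1019.7 normalized counts in control and 917.4, 870.9 and 883 in C3 libraries. All C3 libraries lay below all control libraries, and the gap between the groups was wider than the range within either. CISH fell from a mean of 1076 ± 49.2 to 890 ± 24.1 (SD, n = 3 each), a log2 fold change of -0.27 (95% interval -0.415 to -0.134, adjusted p = 0.00522), the smallest p of the 10. The call ended with library size alone as the scaling (log2 fold change -0.201, adjusted p = 0.0461). It also ended without control 1 (-0.237, adjusted p = 0.0437), control 2 (-0.261, adjusted p = 0.0384), C3 2 (-0.256, adjusted p = 0.0254) or C3 3 (-0.265, adjusted p = 0.0364). Over 14 alternatives the adjusted p ran from 2.39e-05 to 0.0461. The genes most like CISH over the 6 libraries were TARBP2 (Pearson r = 0.9988), a partner of the enzyme DICER1, DOCK8 (0.997) and MON1B (0.9962). TARBP2 had 1119, 1105 and 995.8 normalized counts in control and 837.7, 760.9 and 790.5 in C3 libraries.

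CISH and PIM1 are both well-known STAT5 targets and passed the test in opposite directions, so the 250 bases before the start site of each are shown, from RefSeq (GRCh38.p14), 5′ to 3′ on the strand of the gene. Capitals mark TTCNNNGAA, the motif bound by STAT5 dimers, where N is any base. The motif reads the same on both strands, so both were searched. The stretch of CISH is chr3:50611775-50612024 on the minus strand, and that of PIM1 chr6:37169902-37170151 on the plus strand.
CISH: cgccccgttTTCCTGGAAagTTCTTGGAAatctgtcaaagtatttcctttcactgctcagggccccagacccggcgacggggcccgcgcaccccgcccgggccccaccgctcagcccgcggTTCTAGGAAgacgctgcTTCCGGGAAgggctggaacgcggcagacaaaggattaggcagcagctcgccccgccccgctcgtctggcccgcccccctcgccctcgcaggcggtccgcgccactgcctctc
PIM1: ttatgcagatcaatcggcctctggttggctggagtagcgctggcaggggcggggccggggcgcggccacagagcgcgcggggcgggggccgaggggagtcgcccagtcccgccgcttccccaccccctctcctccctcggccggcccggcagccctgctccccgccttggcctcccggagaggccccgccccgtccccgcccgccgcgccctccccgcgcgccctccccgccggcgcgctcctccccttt
The CISH stretch holds 4 matches, TTCCTGGAA, TTCTTGGAA, TTCTAGGAA and TTCCGGGAA, which begin at -241, -230, -129 and -112 from the start site and do not overlap. They form a near pair with 2 bases between them and a second pair with 8 bases between them, 92 bases apart. Of all 35116 promoter windows of 300 bases in the table, from 250 bases before to 50 after a start, 7.66% hold the motif at least once, and 7 windows of 6 genes hold it 4 times or more. Of the 10 genes 8 have windows in the table, 11 in all, and none but that of CISH holds the motif. There is no entry for SOCS2 and MYC. The E-box CACGTG, the motif of MYC with MAX, searched on both strands, is in none of the 11 windows and in 7.26% of all windows. A match is a description of the letters, and no match says only that these letters are absent from the window.

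SOCS2 (ENSG00000120833, plus strand of chr12:93569814-93583487), the other brake among the 10, ranged from 1785.8 to 1966.6 normalized counts in control and from 1723.6 to 1768.4 in C3 libraries. The groups did not overlap, but the gap between them was small. The log2 fold change was -0.11 (95% interval -0.234 to 0.0237, adjusted p = 0.259), so its size lay within these bounds and the sign was not settled. Of 15 other SOCS, PIAS and phosphatase genes that brake STAT signalling, all were tested, 1 rose and 1 fell, and the median log2 fold change was -0.0219. USP18, a brake on the interferon receptor, had 409.5, 340.4 and 382.1 normalized counts in control and 307.3, 276.6 and 259.6 in C3 libraries. All C3 libraries were the lower ones, and USP18 fell (log2 fold change -0.43, adjusted p = 0.00317). Its call ended with library size alone (adjusted p = 0.0163) and without control 1, control 3 or C3 3 (log2 fold change from -0.5 to -0.353 over the 6 libraries left out in turn), and the adjusted p over 14 alternatives ran from 0.000172 to 0.0405.

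SOCS1, which inhibits JAK kinases, had 647.5, 672.3 and 635.2 normalized counts in control and 923, 826.9 and 709.7 in C3 libraries. The C3 libraries lay above the controls but far apart from each other, and SOCS1 rose (log2 fold change 0.32, adjusted p = 0.00677). That call ended without any 1 of control 1, control 2, control 3, C3 1 and C3 2 (log2 fold change from 0.236 to 0.349), without both control 3 and C3 1 (0.219, adjusted p = 0.0184), with DESeq2 (0.319, adjusted p = 0.0181) and with limma-voom (0.312, adjusted p = 0.0114), and the adjusted p over 14 alternatives ran from 0.00034 to 0.03. SOCS3 had a log2 fold change of 0.31 (adjusted p = 0.0251) in groups that did not overlap, with an adjusted p over 14 alternatives from 0.00819 to 0.103. The count on the list of brakes was between 0 and 1 in each direction with 1 library left out.

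PIM1 (ENSG00000137193, plus strand of chr6:37170152-37175428), a serine and threonine kinase that promotes survival, had 5560.3, 5212 and 5139.1 normalized counts in control and 6438.6, 6164.3 and 6211.6 in C3 libraries. Every C3 library lay above every control library, and the libraries of a group lay close together. PIM1 rose from a mean of 5304 ± 225 to 6272 ± 147 (SD, n = 3 each), a log2 fold change of 0.24 (95% interval 0.115 to 0.368, adjusted p = 0.00624). The call ended without control 2 (log2 fold change 0.229, adjusted p = 0.0574), control 3 (0.22, adjusted p = 0.0194), C3 2 (0.256, adjusted p = 0.0121) or C3 3 (0.251, adjusted p = 0.0289), and the adjusted p over 14 alternatives ran from 6.41e-05 to 0.0574. Its paralogue PIM2, singled out after its values were seen, had 2383.4, 2446.4 and 2231.7 normalized counts in control and 2043, 1882.5 and 1897 in C3 libraries. Its groups did not overlap either, in the opposite direction, and PIM2 fell (log2 fold change -0.28, adjusted p = 0.00253). The PIM2 call ended with library size alone (-0.207, adjusted p = 0.02) and without control 1, control 2, C3 2 or C3 3 (log2 fold change from -0.316 to -0.25 over the 6 libraries left out in turn), and the adjusted p over 14 alternatives ran from 2.21e-08 to 0.0337.

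**Figure D4:**
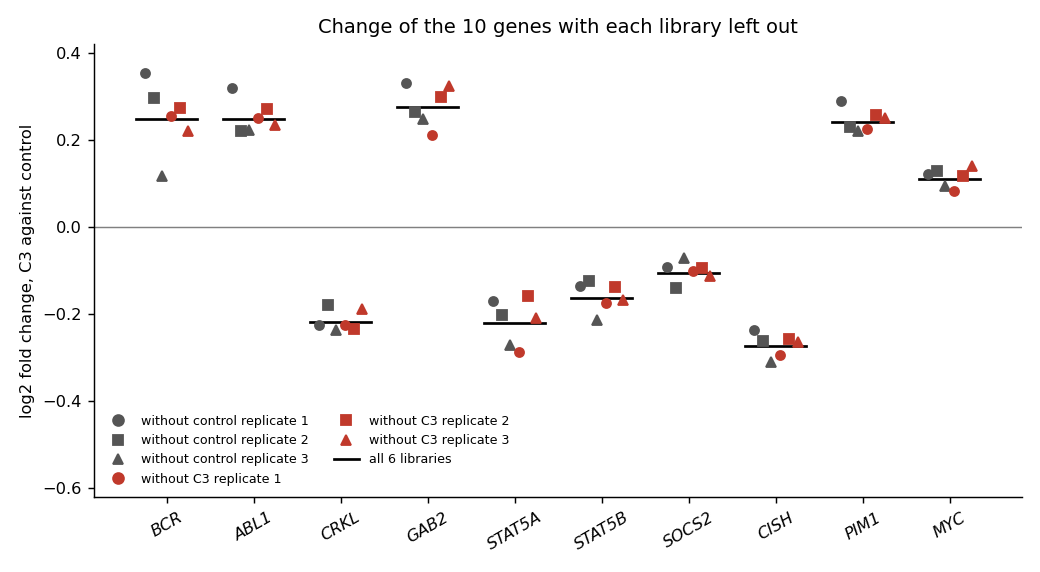
Log2 fold change of the 10 genes with 1 library left out (grey without a control library, red without a C3 library), beside the value from all 6 libraries (line). Every point keeps its gene's sign, and BCR has the widest range, from 0.116 without control 3 to 0.354 without control 1.

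PIM2 belongs to a list of 24 other genes listed as STAT5 targets, all tested, of which 6 rose and 2 fell with a median log2 fold change of 0.0516. The list also holds brakes on receptor tyrosine kinase signalling. Control of its genes by STAT5 was not tested, so these counts are not a measure of STAT5 output. Of the genes that passed, 4 with higher and 1 with lower counts were DEGs. Over all tested genes 6.51% rose and 4.06% fell, and 5.05% were DEGs with higher and 1.47% with lower counts. On the other lists DEGs numbered between 0 and 2 with higher and between 0 and 1 with lower counts. CCND1, the gene of cyclin D1, had 1875, 1691.4 and 1650.2 normalized counts in control and 2676.9, 2607 and 2645.1 in C3 libraries. The groups lay far apart, and CCND1 rose (log2 fold change 0.60, adjusted p = 2.15e-07). CDKN1A, the gene of the cell cycle inhibitor p21, had 763.1, 750.8 and 778.5 normalized counts in control and 1188.2, 1024 and 1093.2 in C3 libraries. The control libraries were almost equal and all C3 libraries higher, and CDKN1A rose (log2 fold change 0.53, adjusted p = 8.19e-06). ID1, an inhibitor of basic helix-loop-helix factors, rose (log2 fold change 0.41, adjusted p = 8.45e-05) with 1448.5 to 1606 normalized counts in control and 1927.6 to 2162.5 in C3 libraries. These 3 calls held in all 14 alternatives each. With 1 library left out, the count on this list was between 5 and 6 higher and between 0 and 2 lower. Of the 18 listed genes with a promoter window, BCL6 and EGR1 hold TTCNNNGAA, 11.1%, beside 9.38% of all 27305 genes in the table. BCL6, with 4 matches like CISH, had between 11.7 and 18 normalized counts in all libraries (log2 fold change 0.15, adjusted p = 0.827).

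MYC (ENSG00000136997, plus strand of chr8:127735434-127742951) had 13475.7, 13829 and 13213.2 normalized counts in control and 15196.7, 14486.8 and 14045 in C3 libraries. The C3 libraries lay above the controls, but C3 3 was closer to control 2 than to C3 1. The log2 fold change was 0.11 (95% interval -0.0195 to 0.239, adjusted p = 0.237), and the adjusted p over 14 alternatives ran from 0.0168 to 0.356. By mean normalized count MYC was at percentile 99.1 of the tested genes. Of 18 MYC partners and antagonists 17 were tested, 2 rose and 1 fell, and the median log2 fold change was 0.0132. MYCL, a MYC family gene, had 87.2, 107.1 and 80 normalized counts in control and 160.5, 187.6 and 178.8 in C3 libraries. All C3 libraries were the higher ones, and MYCL rose (log2 fold change 0.94, adjusted p = 4.65e-05). MXD4, which competes with MYC for MAX, had 468.3, 452.8 and 470.5 normalized counts in control and 334.6, 333.1 and 299.6 in C3 libraries. The groups lay far apart, and MXD4 fell (log2 fold change -0.53, adjusted p = 0.000119). Both calls held in all 14 alternatives each.

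MYCBP2, a large ubiquitin ligase that binds MYC, rose (log2 fold change 0.25, adjusted p = 0.00845) with 2945.7 to 3336.1 normalized counts in control and 3544.2 to 3922.6 in C3 libraries. This call ended without any 1 of control 1, control 2, control 3, C3 2 and C3 3 (log2 fold change from 0.197 to 0.287 and adjusted p up to 0.0719 over the 6 libraries left out in turn). With 1 library left out, the count on the list of partners was between 1 and 3 higher and 1 lower.

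Of 56 known MYC-activated genes 54 were tested, 2 rose and 3 fell, and the median log2 fold change was -0.0444. TCOF1, a factor of ribosomal RNA transcription, had 2339.3, 2098.6 and 1923.6 normalized counts in control and 2704.3, 3045.3 and 3271.7 in C3 libraries. No control library reached the C3 range, and TCOF1 rose (log2 fold change 0.50, adjusted p = 2.48e-05) in this fit and in 14 of 14 alternatives. ODC1, the first enzyme of polyamine synthesis, had 10914.9, 10877.8 and 10723.7 normalized counts in control and 9486.6, 8501.4 and 8606.6 in C3 libraries. All C3 libraries lay below the controls, and ODC1 fell (log2 fold change -0.29, adjusted p = 0.00181). SRM, spermidine synthase of the same route, had 9841.3, 9856.6 and 9429.3 normalized counts in control and 8825.3, 7330 and 7060.9 in C3 libraries. C3 1 lay between the other C3 libraries and the controls, and SRM fell (log2 fold change -0.33, adjusted p = 0.00191). The calls of ODC1 and SRM ended without control 1, control 2, C3 2 or C3 3, with log2 fold changes over the 6 libraries left out in turn from -0.339 to -0.258 for ODC1 and from -0.43 to -0.263 for SRM, and adjusted p up to 0.0264 and 0.0375. With 1 library left out, the count on this list was between 1 and 5 higher and between 0 and 8 lower, the most in each direction without C3 1.

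Levels of different genes were compared as normalized counts per kilobase of exon. In control libraries MYC was the most abundant of the 10 (2211 ± 50.6, SD, n = 3), followed by PIM1 (1750 ± 74.3). STAT5A (661.5), ABL1 (642.5) and CRKL (624.8) came next, each overlapping its neighbour in the range of its libraries. SOCS2 (289.9) stood apart from both its neighbours. BCR (234.4), STAT5B (224.7) and CISH (212.8) overlapped, and GAB2 was the lowest (94.28 ± 4.88). In C3 libraries the order of the first 2 and the last 3 genes was the same. ABL1 (763.2 ± 19.1) stood above STAT5A (568.5 ± 51.9) with no overlap, STAT5A overlapped CRKL (537.4), and BCR (278.4) overlapped SOCS2 (269.4). Reads of a fusion transcript cover only part of each partner's exons, so the levels of BCR and ABL1 per kilobase are not those of 1 transcript.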

How the data were processed

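RNA of Meg-01 cells was sequenced in 3 control and 3 C3 libraries. The authors used fastp for cleaning, STAR 2.6.1d for mapping to GRCh38 and featureCounts 1.5.0-p3 for counting per gene, and the deposited values are raw counts without normalization. The annotation release and strand setting are not stated. The 10 genes and the 6 lists were chosen with earlier results of these data known.

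TMM factors scaled the libraries, and edgeR 4.0.16 in R 4.3.3 compared the groups by its quasi-likelihood test over the 15078 genes that reached 10 counts in 3 or more libraries, with p-values adjusted by Benjamini-Hochberg over all of them. Normalized counts were scaled to the mean effective library size. A gene rose or fell where its adjusted p was below 0.01, and DEGs also had a fold change above 1.3. Single genes and ratios also had exact two-sided permutation tests, which cannot go below 0.1 here. For the 10 genes they gave 0.1 for all but STAT5A, at 0.2. DESeq2 1.42.0 and limma-voom (limma 3.58.1), other scalings, no count filter, a replicate block, an adjusted p below 0.05 and each library left out were alternatives.

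Exon lengths and positions are from GENCODE 44, and promoters from RefSeq. The genes named are the 10, up to 3 of each list from those with the smallest p, the 3 most correlated with BCR, ABL1 and the gene of the 10 with the smallest p, and of each cell type's markers the most abundant and those at 0. PIM2, BCL6, MPO and the markers that passed the test were added after their values were seen.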

Additional observations from a re-analysis of the deposited data

How the results depend on the processing

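With 3 libraries a group, called technical replicates, changes near a log2 fold change of 0.25 lay at the threshold, so 1 library decided many calls. Fits on 5 libraries also have fewer residual degrees of freedom. All 10 genes kept their sign in 140 of 140 alternative values. Of 660 alternative values, for the 10 genes, the 3 genes of each list with the smallest p, PIM2, the counts and the ratios, 506 kept their side of the threshold or, for counts and ratios, stayed within 1.5 times or 1 SD, 52 lost the threshold, 20 gained it and 82 moved further. None of the called values among them changed sign. Cell type markers and other list genes that passed had alternative values only with 1 library left out. The difference in the BCR to ABL1 log2 ratio, 0.012 and not called, changed sign without control 3 (-0.109) and without C3 3 (-0.000147), within 1 SD between libraries. For those below, the cause was not tested. The RLE factors, limma-voom and leaving out mitochondrial genes changed no call among the 10 genes.

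With library size alone, which shifted the median log2 fold change of all genes to 0.0764, DEGs with lower counts numbered 100, 0 of the 10 genes passed with lower counts, CISH was at -0.201 and no longer passed, and GAB2 passed at 0.348. With no count filter 4 passed with higher counts, adding BCR (0.257) and GAB2 (0.285). With DESeq2 2 passed with lower counts, adding CRKL (-0.227). At an adjusted p below 0.05, 4 passed with higher and 3 with lower counts. With control 3 and C3 1 left out, an alternative chosen after seeing the data, DEGs with lower counts numbered 396 and 4 of the 10 passed with lower counts, adding CRKL (-0.241), STAT5A (-0.338) and STAT5B (-0.224).

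The replicate numbers showed no sign of pairing the libraries. Deviations of same-numbered libraries from their group means correlated at 0.0209, -0.0468 and 0.0296, and not every library correlated best with its own number. With 3 libraries a group, such correlations cannot establish that the libraries were unpaired. With the replicate number as a block, 4 of the 10 passed with higher and 3 with lower counts, adding BCR (0.26), GAB2 (0.279), CRKL (-0.217) and STAT5A (-0.22), and DEGs numbered 909 with higher and 268 with lower counts.

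Leaving out 1 library, DEGs with lower counts numbered from 129 (without C3 3) to 340 (without C3 1), and genes of the 10 that passed from 0 to 3 with higher and from 0 to 3 with lower counts. The log2 fold changes ran from 0.116 to 0.354 for BCR, 0.22 to 0.318 for ABL1, -0.236 to -0.18 for CRKL, -0.288 to -0.158 for STAT5A, -0.31 to -0.237 for CISH and 0.22 to 0.289 for PIM1.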

Other observations

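Of the list genes whose change is not described above, 3 on the STAT5 target list rose and 1 fell. On the list of MYC-activated genes 1 passed in each direction, and all are named here after their values were seen. GFI1B, a repressor needed for erythroid and megakaryocytic development, had 5367.3, 5445.3 and 5379.1 normalized counts in control and 7457.2, 6683 and 6504.1 in C3 libraries. The control libraries were almost equal and all C3 libraries higher, and GFI1B rose (log2 fold change 0.35, adjusted p = 0.000329). Its paralogue GFI1, which acts in neutrophil development, had 538.8, 451.7 and 488.4 normalized counts in control and 367.6, 372.3 and 378.8 in C3 libraries. The C3 libraries were almost equal and all lower, and GFI1 fell (log2 fold change -0.40, adjusted p = 0.00178), though not without control 1 or C3 3 (adjusted p up to 0.032). ETV5, a transcription factor of the ETS family, rose (log2 fold change 0.36, adjusted p = 0.000383), as did SPRY4, a brake on receptor tyrosine kinase signalling (log2 fold change 0.51, adjusted p = 0.00954). The call of SPRY4 ended without each library other than C3 2 (adjusted p up to 0.0668), while those of GFI1B and ETV5 held without any 1 library. TERT rose (log2 fold change 0.47, adjusted p = 0.00323), a call that ended without control 2, control 3 or C3 3 (adjusted p up to 0.0375). GRWD1, a ribosome biogenesis factor, fell (log2 fold change -0.26, adjusted p = 0.0051), a call that ended without control 1, control 2, C3 2 or C3 3 (adjusted p up to 0.0799).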
